A study of Mus musculus with 4 samples.

Results

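The homeostatic surface and secreted markers of microglia described here are the transcripts of 8 genes, taken by symbol from the 12800 genes of the deposited count table: Tmem119, Olfml3, Selplg, Crybb1, Upk1b, Ltc4s, Gpr84 and Cd164. All 8 were found, and all 8 passed the minimum of 50 UMIs over both libraries in each comparison between libraries. The study asked how loss of Trem2, a lipid-binding receptor of microglia, alters these cells when cuprizone, a copper chelator that kills oligodendrocytes, keeps the brain supplied with myelin debris. Transcripts of single cells were counted in droplets from their 3′ ends, each molecule once, through unique molecular identifiers (UMIs). There were 4 libraries of brain microglia from male mice aged 12 to 14 months: Trem2 -/- on cuprizone, Trem2 +/- on cuprizone, Trem2 +/+ on cuprizone and Trem2 +/+ on control diet, each after 12 weeks, with cuprizone at 0.2% of the diet. Each library pooled sorted live CD11b+ CD45low cells of 2 hemibrains, so each group is 1 library with no replicate. The sources used here do not give the allele behind the Trem2 deletion. No difference between libraries therefore has a replicate check, no test could be made, and the intervals printed cover counting error only.

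Homeostatic microglia are kept in their state by signals of the healthy brain, among them TGF-β and CSF1 receptor signalling, and by transcription factors such as PU.1 and the MEF2 family. When microglia take up myelin or gather at plaques they move to a disease-associated state that is marked by Spp1, Lpl, Apoe and Itgax, and that in mouse models needs TREM2 for its full form, while homeostatic transcripts are reduced. Of the 8 genes, Tmem119 encodes a transmembrane protein used to tell microglia from other brain macrophages. Selplg encodes the P-selectin ligand PSGL-1, Upk1b a uroplakin of the tetraspanin family best known from bladder epithelium, Cd164 a sialomucin found on many cell types, and Gpr84 a receptor for medium-chain fatty acids that inflammatory stimuli induce in myeloid cells. Olfml3 encodes a secreted olfactomedin-like glycoprotein. Crybb1 encodes a β-crystallin of the lens, and Ltc4s the synthase that adds glutathione to a leukotriene precursor to make the cysteinyl leukotrienes.

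The table held 885, 802, 765 and 571 cells for Trem2 -/- cuprizone, Trem2 +/- cuprizone, Trem2 +/+ cuprizone and Trem2 +/+ control diet. Levels between libraries were taken from the authors' clusters 01, 02, 04, 05, 06 and 08, leaving out cluster 03, rich in neutrophil and choroid plexus transcripts, and cluster 07, in which markers of border-associated macrophages were highest. That left 753, 695, 663 and 479 cells in the same order of libraries. Their UMIs totalled 6514310, 6552603, 6175520 and 3638474, and the median cell had 6061, 6849, 6588 and 4717. All 9 microglia markers outside the 8 genes were present in each of the 8 clusters. Trem2, the targeted gene, had 520 counts per 1000000 UMIs (CPM) in Trem2 -/- cuprizone, 1763 in Trem2 +/- cuprizone, 2939 in Trem2 +/+ cuprizone and 3132 in Trem2 +/+ control diet, in the order the labels give. The summed CPM of 8 neutrophil markers in these cells was 636 in Trem2 -/- cuprizone, 1741 in Trem2 +/- cuprizone, 46.8 in Trem2 +/+ cuprizone and 0.55 in Trem2 +/+ control diet, so neutrophil transcripts differed between the libraries. Leaving out the 1% of pooled cells richest in them, a choice made after seeing the data, changed none of the members' counts of lower or higher genes between libraries. There were 8 cell barcodes that occurred in a pair of libraries.

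In the mouse genome (GRCm38, GENCODE M21) 3 of the 8 genes lie on chromosome 5. Tmem119 spans chr5:113793729-113800516 and Selplg chr5:113818536-113832644, both on the minus strand, with 18019 bases and 1 non-coding gene between them, and Crybb1 spans chr5:112255815-112269585 on the plus strand. Olfml3 spans chr3:103722222-103738001, Upk1b chr16:38773184-38800328, Ltc4s chr11:50236461-50238616 and Gpr84 chr15:103308235-103310612, all on the minus strand, and Cd164 chr10:41519414-41531048 on the plus strand. Ltc4s overlaps the antisense gene model Gm26542 by 1664 bases and Gpr84 overlaps Gm49482 by 843 bases. The strand setting of the counting is not given in the sources used here, and whether reads of each such pair were kept apart was not tested.

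Promoter sequences, 250 bases before to 50 after each start site, were available from RefSeq (GRCm38.p6) for 5 of the 8 genes, and 3 are printed as examples: Crybb1, the member past 1.5-fold between libraries, Gpr84, which did not follow the other genes, and Cd164, which is expressed in many cell types. They lie at chr5:112255570-112255869 (Crybb1, plus strand), chr15:103310389-103310688 (Gpr84, minus strand) and chr10:41519250-41519549 (Cd164, plus strand), read 5′ to 3′ on the strand of the gene, with capitals marking a match to a searched motif.
Crybb1: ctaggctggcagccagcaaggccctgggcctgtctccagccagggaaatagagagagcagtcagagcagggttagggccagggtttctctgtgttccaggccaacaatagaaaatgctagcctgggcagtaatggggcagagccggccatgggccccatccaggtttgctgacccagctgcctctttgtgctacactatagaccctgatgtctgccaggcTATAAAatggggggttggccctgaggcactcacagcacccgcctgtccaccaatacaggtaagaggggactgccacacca
Gpr84: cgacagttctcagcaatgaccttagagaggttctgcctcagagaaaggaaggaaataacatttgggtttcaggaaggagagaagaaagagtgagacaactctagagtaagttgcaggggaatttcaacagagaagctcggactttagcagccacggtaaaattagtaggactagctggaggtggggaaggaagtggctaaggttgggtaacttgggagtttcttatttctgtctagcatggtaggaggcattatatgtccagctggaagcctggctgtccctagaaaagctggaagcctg
Cd164: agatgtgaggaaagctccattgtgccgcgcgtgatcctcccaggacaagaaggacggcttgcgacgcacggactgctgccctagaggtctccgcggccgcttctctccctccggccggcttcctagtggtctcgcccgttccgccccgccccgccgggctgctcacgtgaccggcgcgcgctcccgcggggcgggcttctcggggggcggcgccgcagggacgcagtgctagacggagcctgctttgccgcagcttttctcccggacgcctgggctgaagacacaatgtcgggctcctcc
The motifs searched on both strands were PU.1 (GAGGAAGT), MEF2 (TAAAAATA), SMAD (GTCTAGAC) and the TATA box (TATAAA), which do not overlap here. They are held by 3.20%, 2.72%, 0.213% and 13.6% of all 32851 promoters of the table, in that order. Among the 5 promoters there was 1 match, the TATAAA of Crybb1 at bases 221 to 226 of the window, which starts at position -30 from the start site. Cd164 has 36 CG dinucleotides and 70% G and C in its window, with fewer CG in 93.8% of all promoters, whereas Crybb1 has 2 and Gpr84 3, against a median of 7. A match describes letters only, and a missing match says nothing about a factor.

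Between cuprizone and control diet in Trem2 +/+ mice, 7 of the 8 genes had less than the control level and 1, Gpr84, did not. Crybb1, the lens crystallin gene, had the lowest ratio, and its interval overlaps that of Upk1b, which was short of 1.5-fold. A gene counted as lower or higher when its CPM ratio was past 1.5-fold, its 95% interval did not include 1 and it had at least 50 UMIs over both libraries. By this rule 1 of 8 was lower, Crybb1, and 0 were higher, while 4.44% of all 8819 genes were lower and 2.59% higher. The median log2 ratio of the 8 genes was -0.34, against -0.11 for all genes.

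Crybb1 had 372 CPM in Trem2 +/+ cuprizone and 629 CPM in Trem2 +/+ control diet, a ratio of 0.592 (95% counting interval 0.558 to 0.627). Among the surface proteins, Tmem119 had 1745 CPM on cuprizone and 2146.5 CPM on control diet, a ratio of 0.813 (0.790 to 0.837), and Selplg 2623 CPM on cuprizone and 3396 CPM on control diet, a ratio of 0.772 (0.755 to 0.791). These intervals exclude 1 but the ratios stay inside 1.5-fold. Upk1b had 107 CPM on cuprizone and 157 CPM on control diet, a ratio of 0.680 (0.607 to 0.761), and Cd164 152 CPM on cuprizone and 208 CPM on control diet, a ratio of 0.732 (0.664 to 0.807). Gpr84 had 241 CPM on cuprizone and 233 CPM on control diet, a ratio of 1.03 (0.95 to 1.13), and was the member whose interval included 1. Of the secreted product and the enzyme, Olfml3 had 1342 CPM on cuprizone and 1587 CPM on control diet, a ratio of 0.846 (0.817 to 0.875), and Ltc4s 767 CPM on cuprizone and 894 CPM on control diet, a ratio of 0.858 (0.820 to 0.897), the nearest to 1 of the 7. Of 25 other homeostatic genes 1 was lower, the transcription factor gene Klf2 at a ratio of 0.581, and 0 were higher, with a median of -0.29. The next lowest ratio among them was 0.689 for the fructose transporter gene Slc2a5, and the highest were 0.911 for Tgfbr1, a TGF-β receptor, and 0.876 for the GTPase gene Rhob. Scaling by the trimmed mean of M-values (TMM) moved the median of all genes from -0.11 to 0.01 and each ratio with it, to 0.642 for Crybb1 and 1.12 for Gpr84, and turned the direction of no member.

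**Figure D1:**
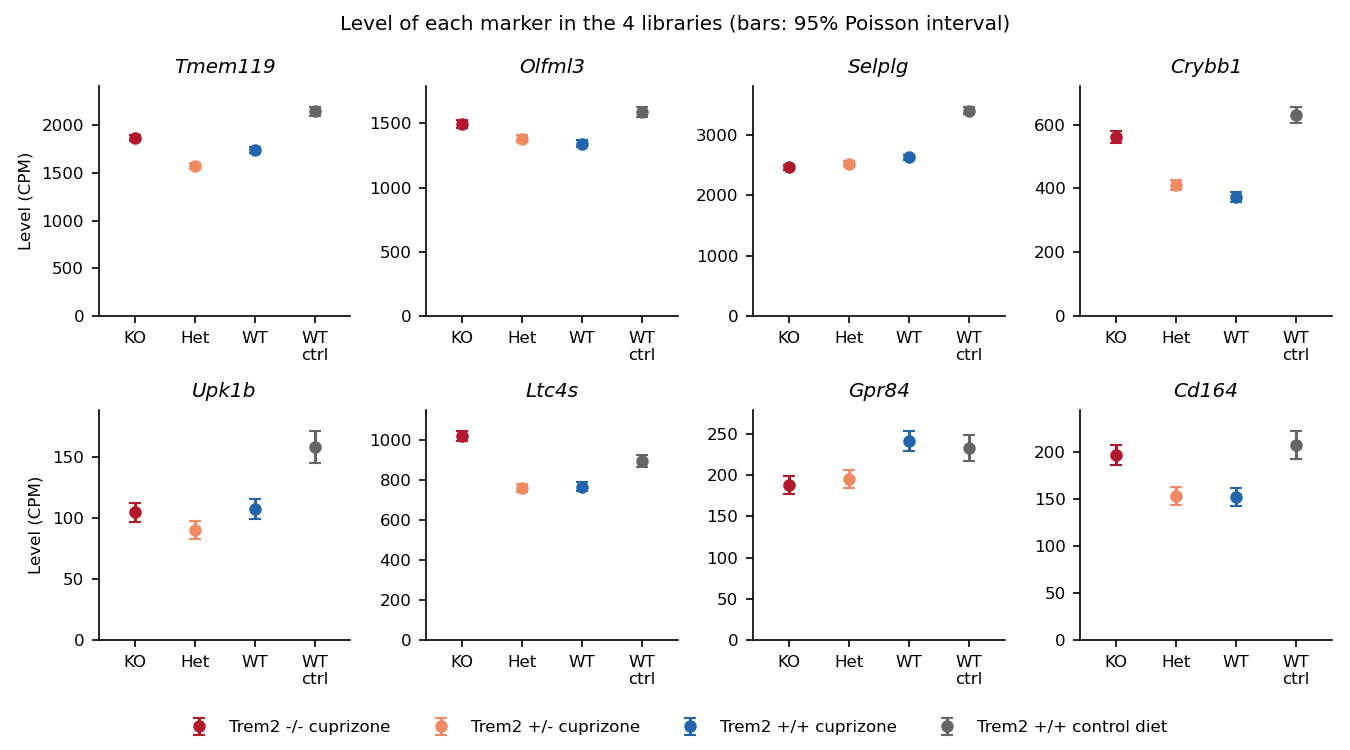
Level of each of the 8 genes (CPM over the 6 pooled clusters, vertical axis from 0) in the 4 libraries, 1 point per library, with 95% Poisson counting intervals as error bars; KO, Het, WT and WT ctrl stand for the libraries in the legend. Crybb1 stands at 561 CPM in Trem2 -/- cuprizone, 412 in Trem2 +/- cuprizone, 372 in Trem2 +/+ cuprizone and 629 in Trem2 +/+ control diet.

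Among the cuprizone libraries, loss of Trem2 went with more Crybb1, Ltc4s and Cd164 and less Gpr84 than in Trem2 +/+, and the ratios of the other 4 genes lay between 0.938 and 1.11. The same Trem2 +/+ cuprizone library is in all 3 comparisons between libraries, so their ratios are not independent of one another. In Trem2 -/- over Trem2 +/+ on cuprizone 0 of 8 genes were lower and 1 was higher, Crybb1, while 3.86% of 9189 genes were lower and 1.64% higher. The median log2 ratio was 0.13, and that of all genes was -0.0015.

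Crybb1 had 561 CPM in Trem2 -/- cuprizone and 372 CPM in Trem2 +/+ cuprizone, a ratio of 1.51 (1.43 to 1.59) that lies at the threshold and dropped below it with cells or clusters weighted equally. Ltc4s had 1022 CPM in Trem2 -/- and 767 CPM in Trem2 +/+, a ratio of 1.33 (1.28 to 1.38), and Cd164 197 CPM in Trem2 -/- and 152 CPM in Trem2 +/+, a ratio of 1.30 (1.19 to 1.41). Both were thus higher by less than 1.5-fold. Gpr84 had 188 CPM in Trem2 -/- and 241 CPM in Trem2 +/+, a ratio of 0.779 (0.721 to 0.840), the lowest of the 8. Tmem119 had 1866 CPM in Trem2 -/- and 1745 CPM in Trem2 +/+, a ratio of 1.07 (1.04 to 1.1), and Olfml3 1496 and 1342 CPM in these libraries, a ratio of 1.11 (1.08 to 1.15). Selplg had 2459.7 CPM in Trem2 -/- and 2623 CPM in Trem2 +/+, a ratio of 0.938 (0.917 to 0.958). Upk1b had 104 CPM in Trem2 -/- and 107 CPM in Trem2 +/+, a ratio of 0.974 (0.874 to 1.09) that includes 1. Of the 25 other homeostatic genes 0 were lower and 0 higher, with a median of 0.12, and the ratios farthest from 1 were 1.43 for the Fc receptor-like gene Fcrls and 1.23 for the lectin gene Siglech, and, below 1, 0.786 for Serinc3 and 0.895 for Tgfbr1.

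With 1 copy of Trem2 no member was past 1.5-fold. Crybb1, Ltc4s, Cd164, Gpr84, Selplg and Olfml3 lay nearer to Trem2 +/+ than in Trem2 -/-, and Tmem119 and Upk1b farther from it. For Gpr84, Selplg and Upk1b the intervals of the Trem2 +/- and Trem2 -/- ratios overlap, so their order is not separated. Tmem119 lay below 1 in Trem2 +/- and above 1 in Trem2 -/-. As folds from 1 its intervals, 1.08 to 1.14 in Trem2 +/- and 1.04 to 1.1 in Trem2 -/-, overlap, so these distances are not separated either. In Trem2 +/- over Trem2 +/+ on cuprizone 0 of 8 were lower and 0 higher, while 1.17% of 9248 genes were lower and 1.32% higher, and the median log2 ratio was -0.03. Gpr84 had 195 CPM in Trem2 +/- and 241 CPM in Trem2 +/+, a ratio of 0.810 (0.751 to 0.874), and Upk1b 89.9 CPM in Trem2 +/- and 107 CPM in Trem2 +/+, a ratio of 0.840 (0.75 to 0.940). Tmem119 had 1573 CPM in Trem2 +/- and a ratio of 0.901 (0.877 to 0.926). Crybb1 had 412 CPM in Trem2 +/- and a ratio of 1.11 (1.05 to 1.17), between those of the other cuprizone libraries. The other 4 ratios were 0.960 for Selplg, 0.993 for Ltc4s, 1.01 for Cd164 and 1.03 for Olfml3. Of the 25 other homeostatic genes 0 were lower and 0 higher, and their ratios ran from 0.916 for the ectonucleotidase gene Entpd1 and 0.948 for the purine receptor gene P2ry13 to 1.11 for Klf2 and 1.16 for Fcrls.

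The cell makeup of the libraries differed along with these levels. Cluster 04, led by activation genes, held 1.73% of the pooled cells in Trem2 -/- cuprizone, 21.6% in Trem2 +/- cuprizone, 18.4% in Trem2 +/+ cuprizone and 1.25% in Trem2 +/+ control diet. Cluster 08 held 23.2%, 11.1%, 11.5% and 2.71%, in the same order. Clusters 05 and 06, where the homeostatic genes were high, held 12.7% and 17.8% of the Trem2 -/- cells, 16.1% and 15.0% of the Trem2 +/- cells, 15.5% and 18.4% of the Trem2 +/+ cuprizone cells and 28.8% and 28.0% of the control-diet cells. Of the 8 genes Tmem119, Selplg and Cd164 were among those the authors marked as analysed for clustering, and the other 5 were not.

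Inside single clusters the diet ratios of all members but Gpr84 lay nearer to 1 than over the pool. Crybb1, at 0.592 over the pool, was among them but stayed below 1 in each cluster. In the 4 clusters with at least 20 cells of both Trem2 +/+ libraries (01, 02, 05 and 06), the cuprizone to control ratio of Crybb1 was 0.811 (0.659 to 0.996), 0.690 (0.629 to 0.758), 0.660 (0.581 to 0.747) and 0.807 (0.690 to 0.943), with each interval below 1. The ratio of Tmem119 ran from 0.964 in cluster 02 to 1.1 in cluster 01, with 0 intervals below 1. Olfml3 ran from 0.945 to 1.04 and Ltc4s from 0.937 to 1.05, and each of their intervals included 1. Selplg ran from 0.925 in cluster 02, the one cluster where its interval was below 1, to 0.989 in cluster 01. Upk1b and Cd164 each had an interval below 1 in cluster 02 alone, at 0.722 (0.593 to 0.879) and 0.738 (0.641 to 0.850). Gpr84 went both ways, with 0.746 (0.613 to 0.906) in cluster 05 against 1.25 (1.08 to 1.45) in cluster 02 and 1.45 (1.08 to 1.95) in cluster 06. With each cluster given equal weight, the median log2 ratio of the 8 genes was -0.0594, Crybb1 was at -0.44 and 0 of 8 were past 1.5-fold, judged by size alone.

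The Trem2 -/- over Trem2 +/+ ratios inside clusters separated the genes in another way than the pooled levels. Selplg was below 1 in 5 of 5 clusters (01, 02, 05, 06 and 08), from 0.742 (0.691 to 0.797) in cluster 08 to 0.930 (0.901 to 0.960) in cluster 02, although its pooled ratio was 0.938. The interval of Crybb1 was above 1 in 4 of 5, from 1.29 (1.12 to 1.49) in cluster 05 to 1.46 (1.35 to 1.58) in cluster 02. It included 1 in cluster 06, at 1.14 (0.968 to 1.34). The interval of Ltc4s was above 1 in 3 of 5. Its ratio ran from 1.09 in cluster 06 to 1.51 (1.33 to 1.72) in cluster 08. The interval of Tmem119 was below 1 in clusters 01, 06 and 08, at 0.853, 0.809 and 0.873. It was above 1 in cluster 02, at 1.07, so the pooled ratio of 1.07 was not shared by clusters 01, 06 and 08. Gpr84 had an interval below 1 in 3 of 5, down to 0.509 (0.363 to 0.705) in cluster 06, and its highest ratio was 1.06, in cluster 05. Cd164 had an interval above 1 in clusters 02 and 08, at 1.32 and 1.48, and its lowest ratio was 1.05, in cluster 05. Upk1b included 1 in each of the 5 clusters. In Trem2 +/- over Trem2 +/+, the interval of Gpr84 was below 1 in 4 of 6 clusters and above 1 in cluster 05. The intervals of Tmem119 and Selplg were below 1 in 3 and 2 of 6, and those of Crybb1 and Olfml3 above 1 in 2 each. In cluster 04 itself Upk1b was at 0.572 (0.401 to 0.813), Cd164 at 0.717 (0.570 to 0.901) and Gpr84 at 0.720 (0.620 to 0.836). There the intervals of Tmem119, Selplg, Olfml3, Crybb1 and Ltc4s included 1.

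**Figure D2:**
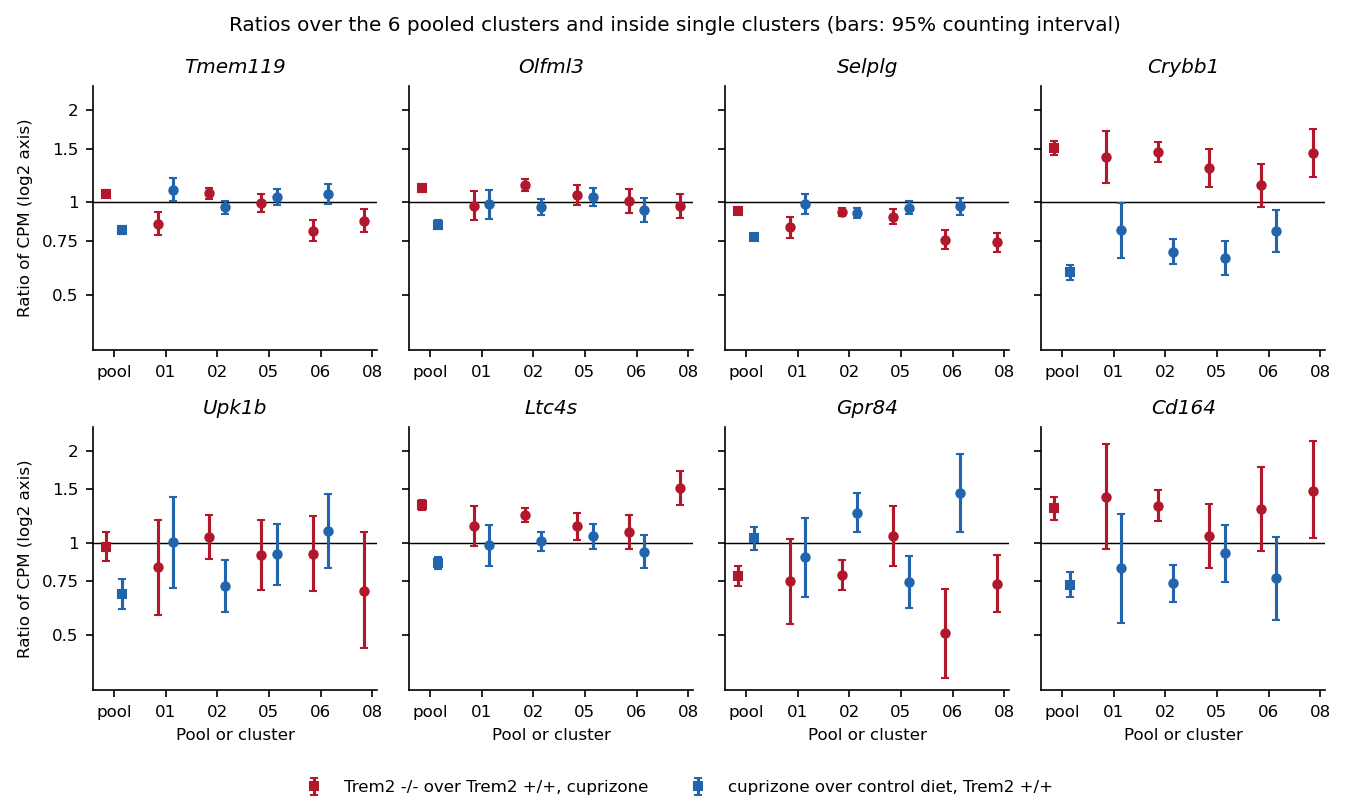
Ratio of CPM (log2 axis) for each of the 8 genes over the 6 pooled clusters (squares) and inside single clusters with at least 20 cells of both libraries (circles), Trem2 -/- over Trem2 +/+ on cuprizone in red and cuprizone over control diet in Trem2 +/+ in blue. Bars are 95% counting intervals and the line marks a ratio of 1. Crybb1 keeps its diet ratio below 1 in 4 of 4 clusters and Selplg its genotype ratio below 1 in 5 of 5.

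In cluster 04, 7 of the 8 genes were at their lowest or near it among the 6 pooled clusters, and Gpr84 was not. The cells were clustered on genes that include 3 of the 8, so this is a description without a test, set against clusters 05 and 06 of the same library. By the 1.5-fold rule 7 of 8 genes were lower and 0 higher in each of the Trem2 -/-, Trem2 +/- and Trem2 +/+ cuprizone libraries. In Trem2 -/- 13% of 3351 genes were lower and 7.7% higher, in Trem2 +/- 24.2% of 5627 genes were lower and 5.99% higher, and in Trem2 +/+ 20.8% of 5182 genes were lower and 6.62% higher. Of the other homeostatic genes 21, 21 and 18 of 25 were lower in these libraries, and 0 were higher. Of the activation genes tested, 12 of 12, 15 of 15 and 15 of 15 were higher.

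Tmem119, Selplg and Upk1b had the lowest ratios to clusters 05 and 06 in Trem2 +/+ cuprizone. Tmem119 had 827 CPM in the 122 cells of cluster 04 and 2611 CPM in the 225 cells of clusters 05 and 06, a ratio of 0.317 (0.296 to 0.339). Selplg had 1392 CPM in cluster 04 and 3808 CPM in clusters 05 and 06, a ratio of 0.365 (0.347 to 0.385), and Upk1b 56.9 and 189 CPM, a ratio of 0.301 (0.230 to 0.389). The interval of Upk1b overlaps those of Tmem119 and Selplg. Crybb1 had 203 CPM in cluster 04 and 524 CPM in clusters 05 and 06, a ratio of 0.386 (0.335 to 0.445), and Ltc4s 427 and 987 CPM, a ratio of 0.433 (0.392 to 0.478). The interval of Crybb1 overlaps those of Tmem119, Selplg, Upk1b and Ltc4s. The markers that held best among the 7 were Olfml3, with 1002 CPM in cluster 04 and 1902 CPM in clusters 05 and 06, a ratio of 0.527 (0.493 to 0.563), and Cd164, with 116 and 176 CPM, a ratio of 0.658 (0.534 to 0.809). Gpr84 had 266 CPM in cluster 04 and 219.6 CPM in clusters 05 and 06, a ratio of 1.21 (1.03 to 1.42), inside 1.5-fold. The median ratio of all genes was 0.841, so Cd164 lay 1.5-fold below 1 by a small margin and nearer to the bulk of genes than the other 6.

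Trem2 +/- gave a similar order with 150 cells in cluster 04. Upk1b was lowest at a ratio of 0.177 (0.131 to 0.237), followed by Crybb1 at 0.286 (0.251 to 0.324), Tmem119 at 0.302 (0.283 to 0.321) and Selplg at 0.358 (0.341 to 0.375). Cd164 stood at 0.451 (0.365 to 0.556), Ltc4s at 0.471 (0.431 to 0.514) and Olfml3 at 0.481 (0.453 to 0.510), 3 neighbours whose intervals overlap. Gpr84 stood at 0.813 (0.695 to 0.951), equal to the median ratio of all genes in that library. In Trem2 -/- the cluster had 13 cells, and ratios ran from 0.267 (0.221 to 0.320) for Selplg to 0.411 (0.338 to 0.496) for Olfml3, with wide intervals for Upk1b (0.163 to 0.70) and Cd164 (0.143 to 0.609). The value of Gpr84 in those 13 cells, 1.24 (0.829 to 1.81), was not stable, with log2 ratios between -1.71 and 1.59 under other choices of depth. The control-diet library had 6 cells in cluster 04, in which Tmem119 had 1026 CPM against 2461 CPM in its clusters 05 and 06. In those cells 6 of 8 genes were lower and 1 higher, while 4.53% of 4130 genes were lower and 4.67% higher. The higher gene was Gpr84, at 1.62 (1.06 to 2.4), and Cd164 was neither, at 0.648 (0.294 to 1.24). Cells of cluster 04 had a median of 10695 UMIs, more than the 7185 of cluster 05 and the 3541 of cluster 06. With cells thinned to 2500 UMIs each, the counts of lower genes were 6 of 8 in Trem2 -/-, 7 of 8 in Trem2 +/- and 7 of 8 in Trem2 +/+. The share of all genes that were lower was not computed for thinned cells, so these counts have no background beside them.

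**Figure D3:**
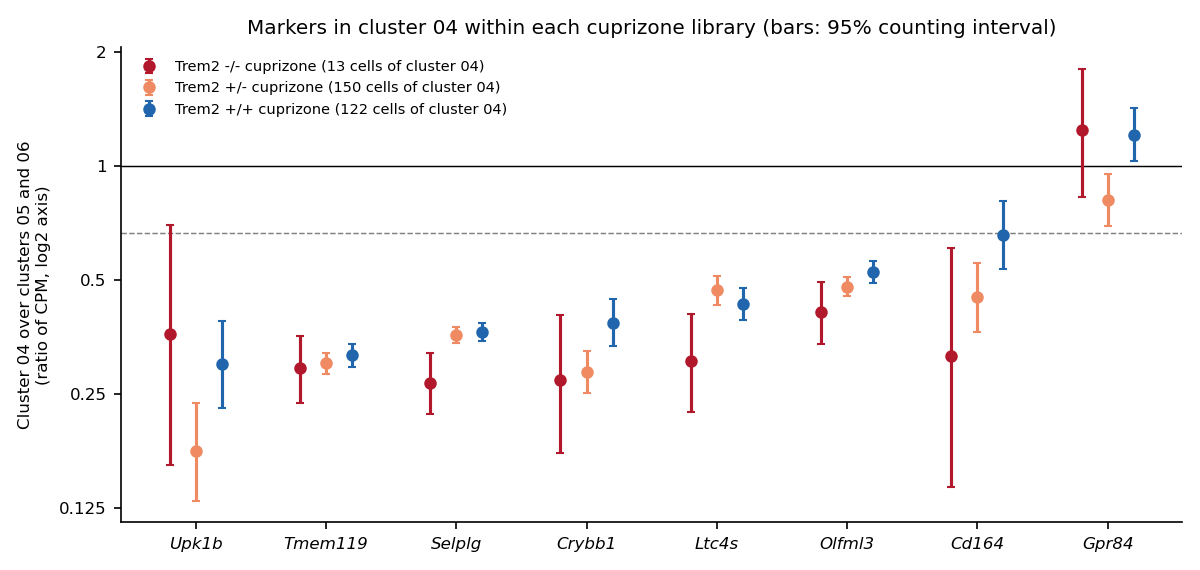
Ratio of CPM in cluster 04 to that in clusters 05 and 06 of the same library (log2 axis) for the 8 genes in Trem2 -/-, Trem2 +/- and Trem2 +/+ cuprizone, with 95% counting intervals and a dashed line at 1.5-fold lower. In Trem2 +/+ cuprizone the points lie between 0.301 for Upk1b and 0.658 for Cd164, with Gpr84 apart at 1.21.

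Levels in the remaining clusters differed less. In Trem2 +/+ cuprizone Tmem119 had 2973 CPM in cluster 01, 1682 in cluster 02, 827 in cluster 04, 2467 in cluster 05, 2842 in cluster 06 and 1680.3 in cluster 08. Selplg followed a similar order from 1392 CPM in cluster 04 over 2524 in cluster 08 and 2583 in cluster 02, neighbours with overlapping intervals, to 3691 in cluster 05, 3836 in cluster 01 and 3995 in cluster 06. Cluster 08 thus lay between cluster 04 and the homeostatic clusters for both. In Trem2 -/- cuprizone, where cluster 08 was largest, it had 1467 CPM of Tmem119, 1873 of Selplg, 1452 of Olfml3 and 503 of Crybb1, against 701, 855, 813 and 175 CPM in that library's cluster 04. Cd164 was lowest in cluster 08 in Trem2 +/+ cuprizone, at 85.7 CPM (60.9 to 117), and its interval overlaps that of cluster 04, at 116 CPM (98.8 to 135).

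Which marker is reduced first was read from cells ordered by activation within each library, an order over cells of 1 time point and not over time. Cells of the 6 clusters were thinned to 2500 UMIs, scored on 15 activation genes that include none of the 8, and split into 5 ranges at the quintiles of the cuprizone libraries. Range 5, the most activated, held 11.6% of the Trem2 -/- cells, 28.1% of the Trem2 +/- cells, 20.9% of the Trem2 +/+ cuprizone cells and 1.34% of the control-diet cells. A gene was taken to fall at the first range in which it was at least 1.5-fold below range 1, with an interval below 1, and stayed so in later ranges. By this rule 6, 8 and 7 of the 8 genes fell somewhere in Trem2 -/-, Trem2 +/- and Trem2 +/+ cuprizone. Of all genes with at least 50 thinned UMIs in the library, 13.5% of 4121, 18.4% of 3956 and 16.9% of 3779 fell by the same rule.

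By this rule Upk1b was the first to fall in Trem2 -/-, at range 2, and in Trem2 +/+, at range 3. In range 3 of Trem2 +/+ Upk1b was at 0.522 (0.336 to 0.799) of range 1, from 35 UMIs. Cd164 was as low there, at 0.509 (0.316 to 0.805) from 30 UMIs. It was at 0.724 (0.460 to 1.13) in range 4, so the rule placed it later. Crybb1 was at 0.670 (0.535 to 0.837) in range 3, just short of the threshold. In Trem2 -/- Upk1b had 246 CPM in range 1, 142 in range 2, 64.2 in range 3, 79.5 in range 4 and 38.1 in range 5, the last from 8 UMIs. In Trem2 +/- Crybb1 came first, at range 3, with 804, 618, 425, 382 and 184 CPM over ranges 1 to 5. Crybb1 fell at range 4 in Trem2 +/+, with 611, 476, 409, 328 and 188 CPM, and at range 5 in Trem2 -/-, with 698, 661, 595, 484 and 367 CPM. Its level was lower at each step in the 3 cuprizone libraries and ended at 0.526 (0.403 to 0.678) of range 1 in Trem2 -/-, 0.229 (0.177 to 0.295) in Trem2 +/- and 0.308 (0.228 to 0.411) in Trem2 +/+. Tmem119 fell at range 5 in Trem2 -/- and at range 4 in the other cuprizone libraries, and was at 0.431 (0.373 to 0.498), 0.286 (0.252 to 0.325) and 0.30 (0.261 to 0.343) of range 1 in range 5 of Trem2 -/-, Trem2 +/- and Trem2 +/+. Selplg fell at range 4, 4 and 5 and Olfml3 at 5, 4 and 5 in these libraries. Cd164 fell at range 4, 5 and 5. Ltc4s fell at range 5 in Trem2 +/- and Trem2 +/+ and did not reach the rule in Trem2 -/-, and Gpr84 reached it in Trem2 +/- alone, at range 4. In the control-diet library, over ranges 1 to 4, Selplg and Crybb1 fell at range 4 and the other 6 did not reach the rule, against 2.27% of 2995 genes that fell.

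The place at which a gene fell moved by 1 or more ranges in many cases when Apoe was left out of the score or cells were thinned to 5000 UMIs, so neighbours in the order are not separated. Upk1b in Trem2 +/-, for example, fell at range 4, at range 5 without Apoe and at range 3 with 5000 UMIs. The median depth of cells before thinning also differed between ranges, with 4290.0 UMIs in range 1 and 9647.5 in range 5 of Trem2 +/+ cuprizone, and 4040.5 and 6433.5 in Trem2 -/-. The cells of range 5 were 73.8% cluster 08 and 13.1% cluster 04 in Trem2 -/-, 72.8% cluster 04 in Trem2 +/- and 77.6% cluster 04 in Trem2 +/+, so the ranges hold different clusters in different libraries. The 4 cuts had 490, 429, 249 and 135 of 2491 cells within 1 score unit.

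At a given range of the score, Crybb1 in Trem2 -/- was at 1.14 (0.95 to 1.38), 1.39 (1.13 to 1.71), 1.45 (1.17 to 1.81), 1.47 (1.14 to 1.92) and 1.95 (1.38 to 2.76) times its Trem2 +/+ cuprizone level over ranges 1 to 5. The interval was above 1 in ranges 2 to 5. Selplg was at 0.931 (0.861 to 1.01), 0.813 (0.749 to 0.882), 0.754 (0.692 to 0.821), 0.806 (0.730 to 0.892) and 0.873 (0.746 to 1.02), with intervals below 1 in ranges 2 to 4. Ltc4s was at 1.17 (1.02 to 1.36) in range 1, 1.45 (1.22 to 1.75) in range 4 and 1.90 (1.5 to 2.4) in range 5, and its interval included 1 in ranges 2 and 3. Tmem119 changed side along the score, with 0.840 (0.762 to 0.927) in range 2 and 1.33 (1.11 to 1.59) in range 5, and included 1 in the others. Range 5 was 73.8% cluster 08 in Trem2 -/- and 77.6% cluster 04 in Trem2 +/+, so ratios there compare different clusters. The makeup of ranges 3 and 4 differed as well. Cluster 02 was 52.5% of range 3 in Trem2 -/- and 33.1% in Trem2 +/+, and cluster 08 was 41.5% and 18.9% of range 4. Inside cluster 08 the Tmem119 ratio was 0.873 (0.802 to 0.951). Those of Crybb1 and Ltc4s were 1.45 (1.22 to 1.74) and 1.51 (1.33 to 1.72) there. Cd164 was at 2.13 (1.38 to 3.37) in range 3, and its interval included 1 in the others. Olfml3 had an interval above 1 in range 4 alone, at 1.14 (1.004 to 1.30). The intervals of Upk1b and Gpr84 included 1 in each of the 5 ranges. Between diets in Trem2 +/+, Crybb1 was at 0.788 (0.662 to 0.935), 0.749 (0.608 to 0.920) and 0.678 (0.521 to 0.886) of the control-diet level in ranges 1, 2 and 3, and at 0.985 (0.600 to 1.69) in range 4, where the control-diet library had 24 cells.

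**Figure D4:**
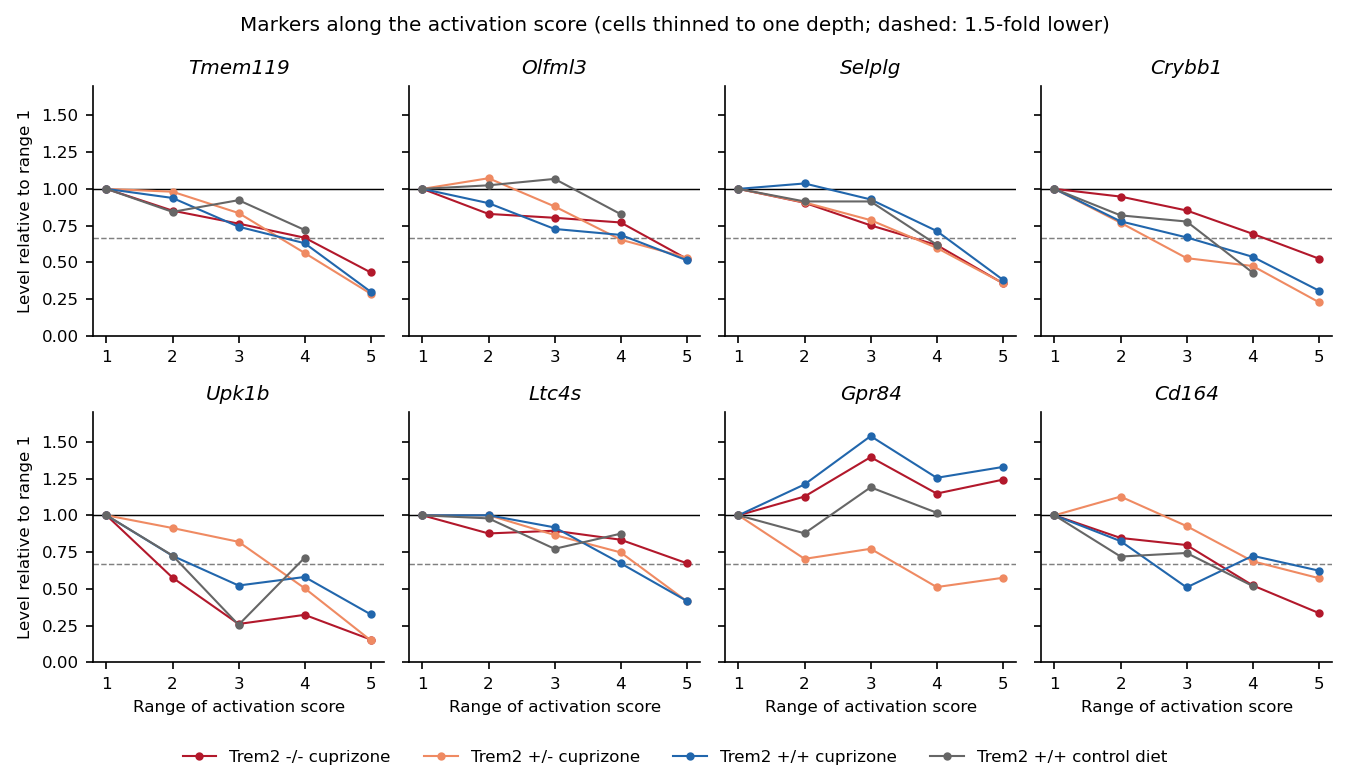
Level of each of the 8 genes relative to range 1 of the same library (linear axis from 0) over 5 ranges of the activation score, 1 line per library, with the dashed line at 1.5-fold lower. Tmem119 reaches 0.431, 0.286 and 0.30 in range 5 of Trem2 -/-, Trem2 +/- and Trem2 +/+ cuprizone, and range 5 is not drawn for control diet, which has 6 cells there.

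The share of thinned cells with at least 1 UMI of Crybb1 had the same order of libraries as its CPM. After thinning to 2500 UMIs Crybb1 was detected in 71.7% (68.3 to 75.0) of Trem2 -/- cells, 55.9% (52.1 to 59.7) of Trem2 +/- cells, 53.7% (49.7 to 57.6) of Trem2 +/+ cuprizone cells and 75.9% (71.7 to 79.8) of control-diet cells. The intervals of Trem2 -/- and control diet overlap, as do those of Trem2 +/- and Trem2 +/+ cuprizone. Without thinning the shares were 88.8%, 78.3%, 78.9% and 87.5%. Thinning left out 31, 15, 22 and 31 shallower cells. Tmem119 was detected in 96.4%, 89.1%, 91.4% and 98.0% of thinned cells, and unthinned in 98.9%, 94.8%, 95.8% and 99.0%. In cluster 04 of Trem2 +/+ cuprizone 63.6% (54.4 to 72.2) of thinned cells and 80.3% of unthinned cells had a Tmem119 UMI, so it was still found in most of them. Crybb1 was found in 26.4% (18.8 to 35.2) of those thinned cells and 59.8% unthinned, and Upk1b in 12.4% (7.11 to 19.6) and 35.2%.

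No cluster was free of these transcripts, which limits how low shares can be read. In cluster 03 of Trem2 +/+ cuprizone, with 21 cells of median 7612 UMIs, Tmem119 had 161 CPM and a UMI in 20% (5.73 to 43.7) of 20 thinned cells and 42.9% of cells without thinning. Crybb1 had a UMI in 0 of the 20 thinned cells, which allows a share of up to 15.0% at that depth (exact upper bound 16.8%), and in 19.0% of the 21 cells without thinning. In cluster 07 of that library, with 81 cells of median 6324 UMIs, Tmem119 had 1356 CPM and a UMI in 79.7% of thinned and 85.2% of unthinned cells, more than in cluster 04, and Crybb1 in 30.4% (20.5 to 41.8) of thinned and 56.8% of unthinned cells. The thinned Crybb1 share in cluster 04 is therefore not above that of cluster 07, and whether either holds free RNA was not tested.

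Across 21 sums of a library and a cluster, each with at least 20 cells, Tmem119 and Selplg ran closest together among the 8 genes, with Pearson's r of 0.967 for log2(CPM + 10), and Crybb1 and Ltc4s had an r of 0.928. Gpr84 had an r between -0.34 and 0.11 with the other 7. These sums share libraries and clusters, so the values describe likeness of pattern and carry no test. Among all 5313 genes with at least 500 UMIs, the genes most like Tmem119 were Ptgs1 (0.978), Slc2a5 (0.978) and Commd8 (0.976), and those most like Selplg were Tmem119 itself, Commd8 (0.962) and Bin1 (0.962). Upk1b was most like F11r (0.952), Fscn1 (0.946) and Ptgs1 (0.944), and Olfml3 most like Lgmn (0.970), Cmtm6 (0.965) and P2ry12 (0.959). Crybb1 was most like Camk1 (0.966), Siglech (0.948) and Ecscr (0.945), and Ltc4s most like Sft2d1 (0.959), Sparc (0.943) and Ecscr (0.939). The best matches were weaker for Cd164, with Pwwp2a (0.871), Nr3c1 (0.844) and Wasf2 (0.844), and for Gpr84, with Adamts1 (0.745) and Fndc3a (0.70).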

How the data were processed

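Counts are as the authors deposited them: UMIs per gene and cell, and per the submitters' processing notes they came from Cell Ranger 2.1.1 and build mm10. The authors had removed cells of low quality, combined the 4 libraries and assigned 8 clusters, per a note deposited with the files. The sources used here give no clustering parameters, annotation or strand setting. From these counts, UMIs were summed over the cells of a library or cluster with Python 3.11.15, numpy 2.4.6, scipy 1.17.1 and pandas 2.3.3. CPM is UMIs of a gene per 1000000 UMIs of the summed cells and is compared within a gene, not between genes. Intervals are 95% (exact Poisson for CPM, exact conditional binomial for ratios, exact binomial, Clopper-Pearson, for shares), and the limit for a share of 0 is 3 counts. PCR and droplet losses are not covered by them. TMM factors came from edgeR 4.0.16 in R 4.3.3, which was used for nothing else. Cells were thinned at random to 2500 UMIs with a fixed seed. No doublet caller was run; alternatives left out cluster 02, whose cells were deepest, or the 5% deepest cells of each library. Ratios, their intervals, the 1.5-fold rule and the thinning were tested on simulated data. The activation ranges and the rule for a fall were not. Named genes are the 8 members, Trem2, for each member the 3 genes of highest r (gene models left out, and 1 gene not reported here), and of 25 other homeostatic genes those with the 2 lowest and 2 highest ratios. The members and lists were chosen with earlier results of these data known. The search of promoters used the RefSeq table, and positions came from GENCODE M21, which has the same build as the counts. Libraries after another time on the diet were not analysed here.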

Additional observations from a re-analysis of the deposited data

Results flagged for a closer look

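The ratio of Gpr84 pointed in opposite directions in different clusters. In cuprizone over control diet in Trem2 +/+ it was 0.746 in cluster 05 and 1.45 in cluster 06, and in Trem2 +/- over Trem2 +/+ on cuprizone it was 0.542 in cluster 08 and 1.28 in cluster 05. Tmem119 in Trem2 -/- over Trem2 +/+ on cuprizone was 0.809 in cluster 06 and 1.07 in cluster 02, each interval lying on its own side of 1. With 1 library per group the differences between clusters were not tested.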

How the results depend on the processing

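No paired analysis was possible because each group holds 1 library. Of 561 values under alternatives, 0 reversed a called direction. Only single-gene ratios called in the main setting could be marked so, and counts, medians and ranges could not. Among the counts and medians that answer a comparison 117 kept their value or call and 12 moved. For Trem2 -/- over Trem2 +/+ on cuprizone, the median log2 ratio of the 8 genes (0.13) became -0.0699 with each cluster weighted equally, 0.0431 as a mean of per-cell CPM and 0.17 without cluster 08, and the count of higher genes (1) became 0 with equal cluster weights and 0 with per-cell CPM. For cuprizone over control diet in Trem2 +/+, the median (-0.34) became -0.22 with TMM scaling, -0.0594 with equal cluster weights and -0.46 without cluster 02, and the count of lower genes (1) became 0 with equal cluster weights. In cluster 04 of Trem2 -/-, the count of higher genes (0) became 1 with cells thinned to 2500 UMIs, 1 against cluster 06 alone and 1 with per-cell CPM, with Gpr84 at log2 ratios of 1.59, 0.90 and 1.33. Counts with equal cluster weights or per-cell CPM went by size alone, without the interval and the minimum of UMIs. The causes were not tested. Among single genes and ranges 321 values were the same, meaning inside the main interval or in the same range, and 111 moved. Leaving out the 1% of pooled cells richest in neutrophil transcripts, chosen after seeing the data, moved no count, and cluster 04 with only cells of 5000 to 15000 UMIs, also chosen so, had 8, 7 and 7 lower genes in Trem2 -/-, Trem2 +/- and Trem2 +/+. The share of all genes called was not computed under these alternatives, so their counts have no background beside them. Depth limits Upk1b, Gpr84 and Cd164 most, and the 13 and 6 cells of cluster 04 in Trem2 -/- and control diet.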

Other observations

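In cluster 07, the cells in which border-associated macrophage markers were highest, the 8 genes summed to 6034 CPM over all libraries, above the 4208 CPM of cluster 04 and the 1602 CPM of cluster 03. Crybb1 in cluster 07 had 432 CPM (396 to 470) in Trem2 -/- cuprizone, 281 (245 to 322) in Trem2 +/- cuprizone, 250 (213 to 291) in Trem2 +/+ cuprizone and 518.5 (476 to 563) in Trem2 +/+ control diet, the same order of libraries as in the pooled microglia. Cluster 07 took no part in those pooled levels. Tmem119 had 1350.0, 982, 1356 and 1523 CPM there, in the same order of libraries. How many cells of cluster 07 are microglia was not tested.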
